A study of Mus musculus with 24 samples.

Results

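The genes described here are the matrix metalloproteinases (Mmp), the ADAMTS proteases (Adamts), the ADAMTS-like proteins (Adamtsl) and the tissue inhibitors of metalloproteinases (Timp). They were chosen by gene symbol alone, and the rule found 51 of the 33079 rows of the expression table, with 23 Mmp, 19 Adamts, 5 Adamtsl and 4 Timp genes. Control cells (WT) carried a Per2::Luciferase knock-in, and KO cells carried the same knock-in and were deficient in Rev-erba and Rev-erbb (Nr1d1 and Nr1d2), the nuclear receptors that repress transcription at ROR response elements. Both were mouse embryonic stem (ES) cells grown through embryoid bodies to differentiation day 28, given 100 nM dexamethasone, a glucocorticoid, and frozen every 4 h from 12 to 56 h later. Each genotype has 12 libraries, 1 per time point, with the RNA of 3 embryoid bodies pooled for every library, and no sample without dexamethasone was analysed. The KO cells are a line made by 2 rounds of targeting from picked colonies and the WT cells are the line before targeting, so genotype and cell line cannot be told apart.

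Matrix metalloproteinases are zinc proteases, made as inactive precursors, that cut collagens, elastin, laminins and many cell surface and signalling proteins. ADAMTS proteases cut proteoglycans such as versican and aggrecan, trim procollagens or act on fibrillin microfibrils, while ADAMTS-like proteins share their ancillary domains, lack the catalytic one, and several of them bind microfibrils. TIMPs bind the active site of these enzymes, and the balance between enzymes and inhibitors is known to govern matrix turnover in connective tissue. Several Mmp genes lie next to each other in a cluster, and their promoters are textbook targets of AP-1, the Fos and Jun transcription factors, and of repression by glucocorticoids.

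That cluster held 10 of the 51 genes, from 7272514 to 7699585 on chromosome 9 of GRCm38, a span of 427.1 kb, and it held the genes with the largest difference between genotypes and most of those that rose with time. The 100 bases before the start of its 7 genes with enough RNA to test are shown from RefSeq (GRCm38.p6), 5′ to 3′ on the strand of the gene (all on the plus strand), because a shared motif stands out in most of them. Capitals mark TGANTCA, the AP-1 letters, and in Mmp10 also TGACCTA, which is the reverse complement of TAGGTCA, the core letters of a ROR response element.
Mmp13 (chr9:7272414-7272513): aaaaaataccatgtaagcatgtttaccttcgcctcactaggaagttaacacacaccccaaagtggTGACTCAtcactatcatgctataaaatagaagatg
Mmp12 (chr9:7347274-7347373): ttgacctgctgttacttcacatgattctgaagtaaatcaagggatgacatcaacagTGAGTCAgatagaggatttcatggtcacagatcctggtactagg
Mmp3 (chr9:7445722-7445821): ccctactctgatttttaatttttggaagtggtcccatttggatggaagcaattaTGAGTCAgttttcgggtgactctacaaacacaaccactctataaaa
Mmp10 (chr9:7502242-7502341): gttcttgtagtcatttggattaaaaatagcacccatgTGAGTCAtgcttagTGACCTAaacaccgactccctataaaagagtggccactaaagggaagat
Mmp8 (chr9:7558329-7558428): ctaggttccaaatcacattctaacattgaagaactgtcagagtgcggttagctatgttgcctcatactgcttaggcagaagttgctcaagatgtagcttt
Mmp27 (chr9:7571296-7571395): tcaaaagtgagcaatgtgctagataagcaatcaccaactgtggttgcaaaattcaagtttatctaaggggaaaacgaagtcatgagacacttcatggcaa
Mmp7 (chr9:7691990-7692089): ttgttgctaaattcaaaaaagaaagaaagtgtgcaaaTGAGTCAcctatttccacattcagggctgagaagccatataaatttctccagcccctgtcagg

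Counted from the first base of the gene, the AP-1 letters began at position -35 in Mmp13, -44 in Mmp12, -46 in Mmp3 and -63 in both Mmp10 and Mmp7. In windows of 250 bases before to 50 after the start, searched on both strands, they were present in 8 of the 10 cluster genes, Mmp8 and Mmp27 being the exceptions, and in 0 of the other 26 members with a promoter in the RefSeq table. Members without a promoter there, among them Mmp2, Mmp9, Mmp16, Mmp17 and Mmp19, were not searched. Of all 27025 genes with a promoter in that table, 8.97% held the AP-1 letters. Mmp1a, Mmp1b and Mmp20, the other cluster genes with the motif, had too little RNA to test. The letters TAGGTCA were found in the windows of Mmp10, beginning at position -49 on the reverse strand, and Adamtsl5, at -138. Of all genes in the RefSeq table, 2.97% held them. A match in these letters is a description of the sequence, and binding was not measured.

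Expression was given as RPKM, reads scaled to the exonic length of a gene and to the library total, so levels can be compared between genes. Each library had 6183500.5 to 10287969 fragments on exons, of which the members together received 46579 to 92673 fragments per library. In each library the median correlation with the others of its genotype was between 0.981 and 0.990. Connective tissue genes were abundant: the summed level of 7 fibroblast markers was 2423 to 2790 RPKM in WT and 2459 to 3018 in KO. Macrophage (medians of 387 in WT and 503 RPKM in KO, summed over 5 markers) and epithelial markers were also present, and the cultures are mixtures in which fewer cells of a type and less RNA per cell cannot be told apart. Among the markers, the WT library of 36 h stood apart, with the bone matrix gene Ibsp at 12.6 RPKM against at most 0.0376 in the others, and results were also computed without it. Gene-level values do not show the targeted deletion, since single exons were removed: Nr1d1 had a median of 4.67 RPKM in WT and 6.93 in KO, and Nr1d2 of 1.83 and 3.16. Of 7 Rev-erb genes and direct targets, 6 were higher in KO and 0 lower, where the shares of all genes were 11.5% and 14.7%. Among the higher were Npas2 (+0.62), Arntl (+0.41) and Bhlhe40 (+0.30 on the log2 scale).

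The tests used genes with a mean over 0.5 RPM (RPKM not scaled to length) in WT or KO, and 43 of the 51 members passed this filter, 42 of them in both genotypes and Adamts19 in KO alone. The 8 others were Mmp1a, Mmp1b, Mmp20, Mmp21, Mmp25, Adamts13, Adamts16 and Adamts18, with means between 0.000496 and 0.0726 RPKM. Mmp20, the protease of tooth enamel, had reads in 4 of the 24 libraries and Mmp21 in 1. These 8 genes were not tested, so the results hold no statement on a change in them.

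The levels of the members spanned several orders of magnitude. Mmp2, gelatinase A, had by far the highest mean, 437 RPKM over all libraries, followed among the proteases by Mmp14, a membrane-bound protease that activates the precursor of Mmp2, at 62.4 RPKM. Timp2, which helps Mmp14 to activate Mmp2 as well as inhibiting it, had a mean of 132 RPKM and was the other gene above 100. In the range from 10 to 100 RPKM lay 9 members, up to Timp3 at 99.0, then 22 between 1 and 10 and 10 tested members under 1 RPKM. Mmp2 made up 72.9% to 79.4% of the summed Mmp RPKM in each library. The summed Mmp level was 525 to 637 RPKM in WT and 506 to 621 in KO, and the summed Timp level 257 to 311 and 248 to 308. The ratio of these sums had a median of 2.06 in both genotypes, and its ranges, 1.92 to 2.18 in WT and 1.89 to 2.32 in KO, overlapped almost wholly.

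Within the families the order of levels was clear at the top and blurred below. Among the Timp genes, Timp2 was followed by Timp3, Timp1 (44.9 RPKM) and Timp4 (2.99), and each step was larger than the SD over the 24 libraries. The same held for all 4 steps among the Adamtsl genes, from Adamtsl2 (29.3 RPKM) and Adamtsl4 (7.72) down to Adamtsl3 (1.23). Adamts2, Adamts1, Adamts10 and Adamts15 led the Adamts genes with 53.7, 40.3, 16.5 and 7.98 RPKM, and 5 of the 18 steps in that family were within the larger SD of the neighbours. Among the Mmp genes 15 of 22 steps were, beginning with that from Mmp23 (16.3 RPKM) to Mmp19 (15.5).

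**Figure D1:**
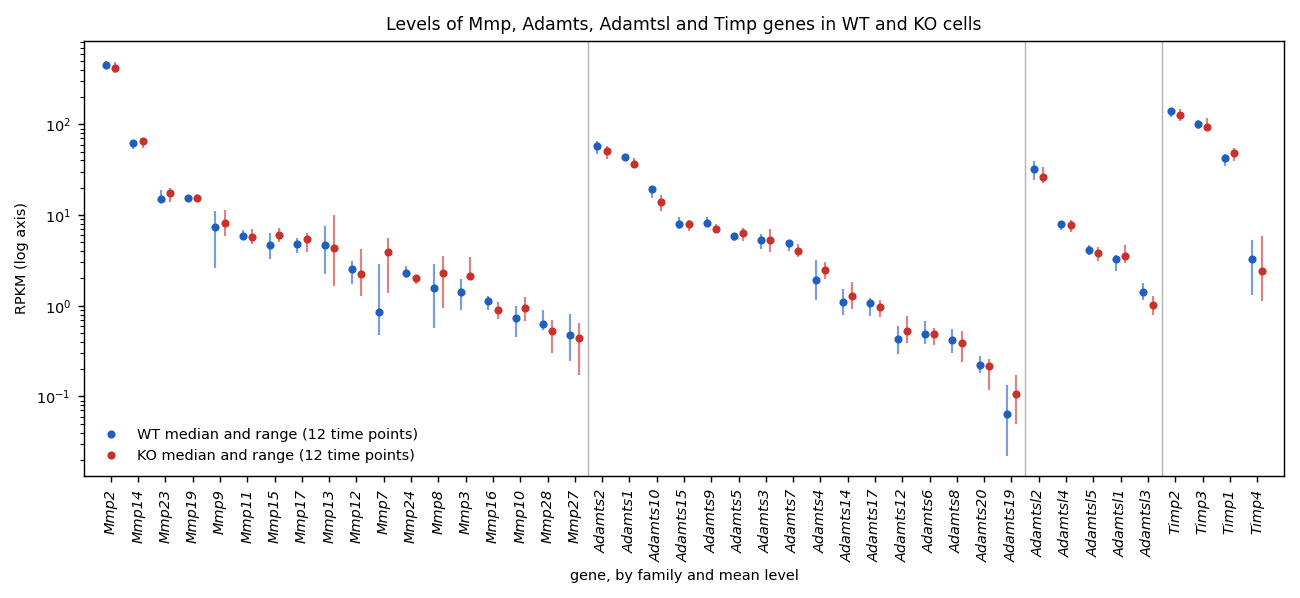
Levels of the 43 members with enough RNA to test, as RPKM on a log axis, ordered by family and mean. Points are medians and bars the lowest to highest of 12 time points in WT (blue) and KO (red); Mmp2, Timp2 and Timp3 stand highest, and Mmp7 shows the widest separation between genotypes, with medians of 0.857 and 3.88 RPKM.

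KO and WT were compared to ask which of these genes differed in cells without REV-ERBs, with limma on log2(RPKM + 0.1) and Benjamini-Hochberg adjustment over all 15112 genes tested. A value called higher or lower has an adjusted p under 0.05. The log2 scale with 0.1 added understates the change of genes with low values. The 12 hours stand as replicates, so the spread holds the change over time, and the p-values measure the spread between these libraries. Of the 43 members, 18 (41.9%) were called, against 26.3% of all genes, 8 of them higher in KO, where the share of all genes was 11.5%, and 10 lower, where it was 14.7%. Among the 42 that passed the filter in both genotypes, without Adamts19, 17 were called, 7 higher and 10 lower. The median difference over the members was -0.03, near the -0.01 over all genes, and the median of its size was 0.163 against 0.0902. In each of the 18 genes the ranges of the genotypes overlapped, if only slightly in some.

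**Figure D2:**
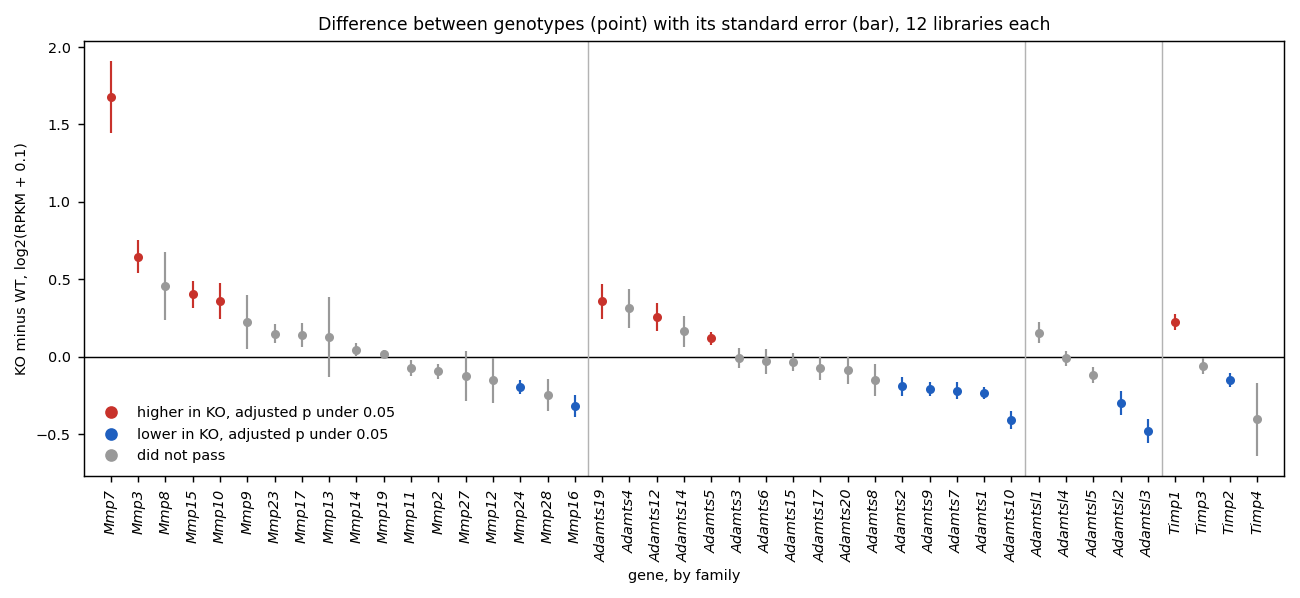
Difference between KO and WT in log2(RPKM + 0.1), with its standard error as a bar, for the 43 members tested, from 12 libraries per genotype. Red points are higher in KO, blue points lower and grey points did not pass; Mmp7 lies apart at +1.68, and most called Adamts and Adamtsl genes lie below 0.

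Of the 7 tested genes of the cluster, 3 were higher in KO, Mmp7, Mmp3 and Mmp10, where 11.5% of all genes were. Mmp7, matrilysin, an enzyme of epithelia and glands without the hinge and hemopexin domains of its relatives, lies at chr9:7692090-7699585. It ranged from 0.476 to 2.90 RPKM with a median of 0.857 in WT, and from 1.38 to 5.60 with a median of 3.88 in KO. KO was higher at 12 of 12 hours, and the highest WT value, at 56 h, was the one that reached far into the KO range. The means were 1.13 ± 0.675 and 3.66 ± 1.19 RPKM (SD, n = 12), a difference of +1.68 ± 0.233 (SE, adjusted p = 1.38e-05), from 21.7 and 69.3 fragments per library. All 4 epithelial markers were also higher in KO: Krt8 by 0.71, Cdh1 by 0.67, Krt18 by 0.57 and Epcam by 0.35 on the log2 scale. Their summed level was 145 to 277 RPKM in WT and 257 to 429 in KO, and its part in the Mmp7 difference was not tested. Across hours, Mmp7 was related to this sum with Pearson's r of 0.544 in WT (permutation test, p = 0.0548, adjusted p = 0.110) and 0.252 in KO (p = 0.428, adjusted p = 0.570), and Spearman's rho of 0.587 and 0.308 (p = 0.0477 and 0.330, adjusted p = 0.127 and 0.470). No relation passed adjustment in either genotype. Without the 2 libraries farthest from the median of the sum, r was 0.498 in WT and 0.437 in KO. The sum was mostly Krt8 and Krt18, with medians of 89.5 and 71.2 RPKM in WT and 156 and 113 in KO. These relations lie within a genotype, so they cannot show what part epithelial cells had in the difference between genotypes.

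Mmp3, stromelysin 1, which cuts proteoglycans and activates other Mmp precursors, ranged from 0.895 to 1.98 RPKM (median 1.43) in WT and from 1.93 to 3.48 (median 2.12) in KO. The 2 ranges met only at their edges, and KO was higher at 12 of 12 hours. The difference was +0.65 ± 0.108 (adjusted p = 1.20e-04), and the KO values peaked at 32 h, when WT was at its lowest. Mmp10, stromelysin 2, the gene with both motifs above, ranged from 0.451 to 0.995 RPKM (median 0.728) in WT and from 0.679 to 1.24 (median 0.937) in KO. KO was again higher at 12 of 12 hours although the ranges overlapped widely, and the difference was +0.36 ± 0.114 (adjusted p = 0.0217). Mmp3 and Mmp10 are close paralogs with 45.4 and 21.9 fragments per WT library, and a few reads may have been divided between them. None of the 7 tested cluster genes was lower in KO, and the collagenases Mmp13 and Mmp8 and the macrophage elastase Mmp12 did not pass (differences of +0.13, +0.46 and -0.15).

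The membrane-bound proteases moved in both directions. Mmp15, a transmembrane relative of Mmp14 found in epithelia, ranged from 3.30 to 6.41 RPKM (median 4.67) in WT and from 5.09 to 7.20 (median 6.10) in KO. KO was higher at 11 of 12 hours, all but 56 h, with a difference of +0.40 ± 0.0872 (adjusted p = 0.00143). Mmp16, the related enzyme of neural and mesenchymal cells, went the other way, from 0.887 to 1.28 RPKM (median 1.13) in WT and from 0.714 to 1.09 (median 0.898) in KO. It was lower in KO at 11 of 12 hours, by -0.32 ± 0.0714 (adjusted p = 0.00185). Mmp24, a neural member of this group, had 2.04 to 2.73 RPKM (median 2.32) in WT and 1.73 to 2.21 (median 2.01) in KO. KO was lower at 12 of 12 hours (difference -0.20 ± 0.0458, adjusted p = 0.00262). The neuronal markers Syt1 and Snap25, 2 of 4, were lower in KO too, by -0.82 and -1.28, and the 4 summed to 3.15 to 25.9 RPKM in WT and 1.91 to 9.996 in KO; the part of such cells was not tested. Of the genes of Mmp2 activation, Mmp14 and Mmp2 did not pass, while Timp2 was lower in KO (-0.15, adjusted p = 0.0191). Mmp14 had medians of 62.1 and 65.1 RPKM in WT and KO (difference +0.05, adjusted p = 0.415), and Mmp2 451 and 420 RPKM (-0.09, adjusted p = 0.152). With quantile normalization Mmp2 passed as lower in KO (-0.16, adjusted p = 0.0217), while its adjusted p was up to 0.451 under other alternatives.

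Mmp9, gelatinase B, made by macrophages, neutrophils and osteoclasts, is named in the study as a REV-ERB target of macrophages. It ranged from 2.58 to 11.2 RPKM (median 7.33) in WT and from 5.84 to 11.4 (median 8.24) in KO, and the WT range held nearly all KO values. The difference, +0.22 ± 0.174, did not pass (adjusted p = 0.367). From hour to hour Mmp9 varied with osteoclast markers (the sum of Acp5, Ctsk, Calcr and Ocstamp, of which Calcr and Ocstamp stayed under 0.466 RPKM). Pearson's r was 0.927 in WT (permutation test, p = 1e-05, the smallest that 100000 permutations can give, adjusted p = 8e-05) and 0.860 in KO (p = 0.00041, adjusted p = 0.00164), with Spearman's rho of 0.916 and 0.741 (p = 6e-05 and 0.00817, adjusted p = 0.00048 and 0.0327). Without the 2 libraries farthest from the median of the marker sum, r was 0.848 and 0.733, and after removal of a linear trend over time 0.909 and 0.845. With the macrophage or neutrophil markers no relation of Mmp9 passed adjustment over the 8 relations computed, which were chosen after values were seen. The nearest was with the macrophage sum in KO (r = 0.647, permutation test, p = 0.0210, adjusted p = 0.0560), where r in WT was 0.146. That sum was mostly Lyz2, with medians of 328 RPKM in WT and 440 in KO, so it says little of the other macrophage markers. Each sum is from the same library as its Mmp9 value, so the relation describes how these RNAs varied together from one pool of embryoid bodies to the next.

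**Figure D3:**
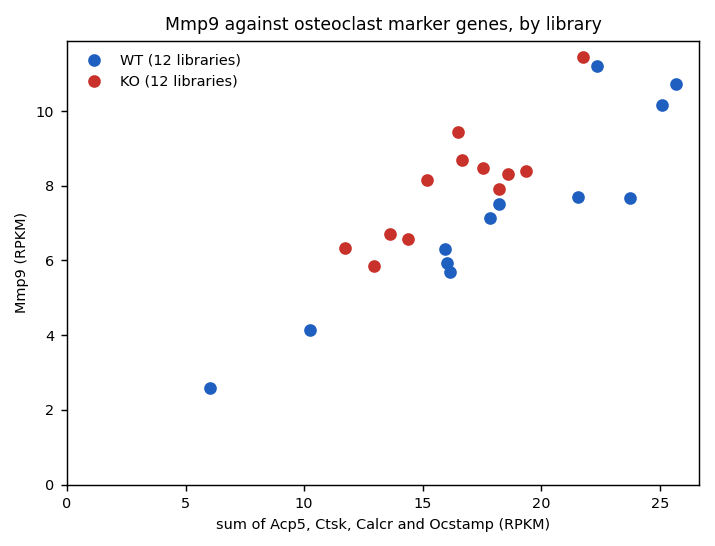
Mmp9 (RPKM, vertical axis) against the summed RPKM of the osteoclast marker genes Acp5, Ctsk, Calcr and Ocstamp (horizontal axis), 1 point per library, 12 of WT in blue and 12 of KO in red. Mmp9 was higher in libraries with more of these markers in both genotypes, with r of 0.927 in WT and 0.860 in KO.

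Among the 15 Adamts genes that passed the filter in both genotypes, 7 were called, 5 lower and 2 higher in KO. The shares of all genes were 14.7% lower and 11.5% higher, and the count of higher genes was near that share. Adamts10, which binds fibrillin and is mutated in Weill-Marchesani syndrome, had the largest difference in this family. It ranged from 15.4 to 20.4 RPKM (median 19.4) in WT and from 10.97 to 16.8 (median 13.9) in KO, and was lower in KO at 12 of 12 hours. The ranges overlapped in a narrow zone, and the difference was -0.41 ± 0.0603 (adjusted p = 2.94e-05), from 1334 and 1004 fragments per library. Adamts1, a versican-cutting protease, was lower in KO at 12 of 12 hours as well, with 39.4 to 46.5 RPKM (median 43.9) in WT and 33.8 to 42.8 (median 36.3) in KO. Its difference was -0.23 ± 0.0387 (adjusted p = 1.10e-04). Adamts9, also a versicanase and with Adamts20 the mammalian relative of a worm protease that guides gonad cells, had 7.30 to 9.63 RPKM (median 8.09) in WT and 6.30 to 8.07 (median 7.004) in KO. It was lower in KO at 11 of 12 hours (-0.21 ± 0.0425, adjusted p = 8.07e-04). Adamts2, the main procollagen N-proteinase, which trims type I procollagen, was the Adamts gene with the highest level. It had 47.4 to 65.7 RPKM (median 57.7) in WT and 41.6 to 57.7 (median 50.5) in KO, with a difference of -0.19 ± 0.0600 (adjusted p = 0.0195). Of the 7 fibroblast markers 3 were higher and 2 lower in KO, and its substrate genes Col1a1 and Col1a2 were among the higher, by 0.21 and 0.13.

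Adamts7 and Adamts12, a closely related pair that cut the cartilage protein COMP, were called in opposite directions. Adamts7 had 4.06 to 5.36 RPKM (median 4.87) in WT and 3.48 to 4.82 (median 4.03) in KO, a difference of -0.22 ± 0.0538 (adjusted p = 0.00390). Adamts12, which is expressed at a lower level, had 0.292 to 0.598 RPKM (median 0.434) in WT and 0.393 to 0.780 (median 0.533) in KO, +0.26 ± 0.0913 (adjusted p = 0.0387). The Adamts12 call was lost without a filter on low values (adjusted p = 0.0643, and from 0.0109 to 0.374 over the alternatives). Adamts5, the main aggrecanase of cartilage, lies 55.0 kb from Adamts1 on chromosome 16 and moved the other way, from a median of 5.87 to 6.34 RPKM (+0.12 ± 0.0436, adjusted p = 0.0482). KO was higher at 11 of 12 hours, but the call was lost with median-ratio scaling (adjusted p = 0.0558) and without the WT library of 36 h (adjusted p = 0.0847), in a range from 0.0196 to 0.366 over the alternatives. Adamts19, with 5.5 and 8.83 fragments per library, had medians of 0.0644 and 0.106 RPKM, and since it entered the test through its KO level alone its difference of +0.36 is a description. Adamts4, another aggrecanase of cartilage, had medians of 1.91 and 2.49 RPKM and did not pass (+0.31, adjusted p = 0.0674).

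The ADAMTS-like genes fell or did not pass. Adamtsl3, a secreted protein of the extracellular matrix, ranged from 1.17 to 1.79 RPKM (median 1.41) in WT and from 0.795 to 1.28 (median 1.03) in KO. KO was lower at 12 of 12 hours, and the difference was -0.48 ± 0.0781 (adjusted p = 8.46e-05), the largest fall among all members. Adamtsl2, which is mutated in geleophysic dysplasia and binds latent TGF-beta binding proteins and fibrillin, had 24.4 to 39.4 RPKM (median 31.9) in WT and 22.5 to 34.2 (median 26.2) in KO. It was lower in KO at 9 of 12 hours (-0.30 ± 0.0775, adjusted p = 0.00605), and the hours at which it was not lower were the late 52 and 56 h and 32 h. Adamtsl4, which binds fibrillin-1 in the eye, had medians of 7.89 and 7.71 RPKM (-0.01, adjusted p = 0.885), and Adamtsl1 and Adamtsl5 did not pass either. Of 14 genes listed with the fibrillin microfibril, 6 were lower in KO and 1 higher, where the shares of all genes were 14.7% and 11.5%. Beside fibrillin, Ltbp and Mfap genes the list held fibulins, Papln and Thsd4, so it was wider than the microfibril itself. Mfap2, a microfibril glycoprotein, differed by -0.80, and the latent TGF-beta binding proteins Ltbp1, Ltbp2 and Ltbp4 by -0.66, -0.51 and -0.35. The summed level of the 14 was 431 to 537 RPKM in WT and 391 to 450 in KO.

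The inhibitors changed in both directions. Timp1, the inducible inhibitor, at chrX:20870166-20874737, had 35.0 to 47.2 RPKM (median 42.6) in WT and 39.2 to 55.3 (median 48.6) in KO. KO was higher at 11 of 12 hours (+0.22 ± 0.0523, adjusted p = 0.00291). Timp2 had 121 to 152 RPKM (median 140) in WT and 110 to 146 (median 126) in KO, and was lower in KO at 11 of 12 hours (-0.15 ± 0.0464, adjusted p = 0.0191). Timp3, the matrix-bound inhibitor that also blocks ADAMTS proteases, had medians of 101 and 93.7 RPKM (-0.06, adjusted p = 0.412), and Timp4 of 3.28 and 2.42 (-0.41, adjusted p = 0.215). Timp1, Timp3 and Timp4 lie within the synapsin genes Syn1, Syn3 and Syn2 on the opposite strand. For Timp3, 21.3% of its 8144 exonic bases in GENCODE overlap exons of Syn3, and for Timp1 none do. The exonic length used in the counting of Timp3 was 4676 bases, so the share of counted bases may differ. Use of strand in the counting is not given in the sources used here, so reads from such overlaps cannot be told apart. Of the members called, Mmp24, Adamts9 and Mmp7 share 13.6%, 12.0% and 11.5% of their exonic bases in GENCODE with genes on the other strand.

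**Figure D4:**
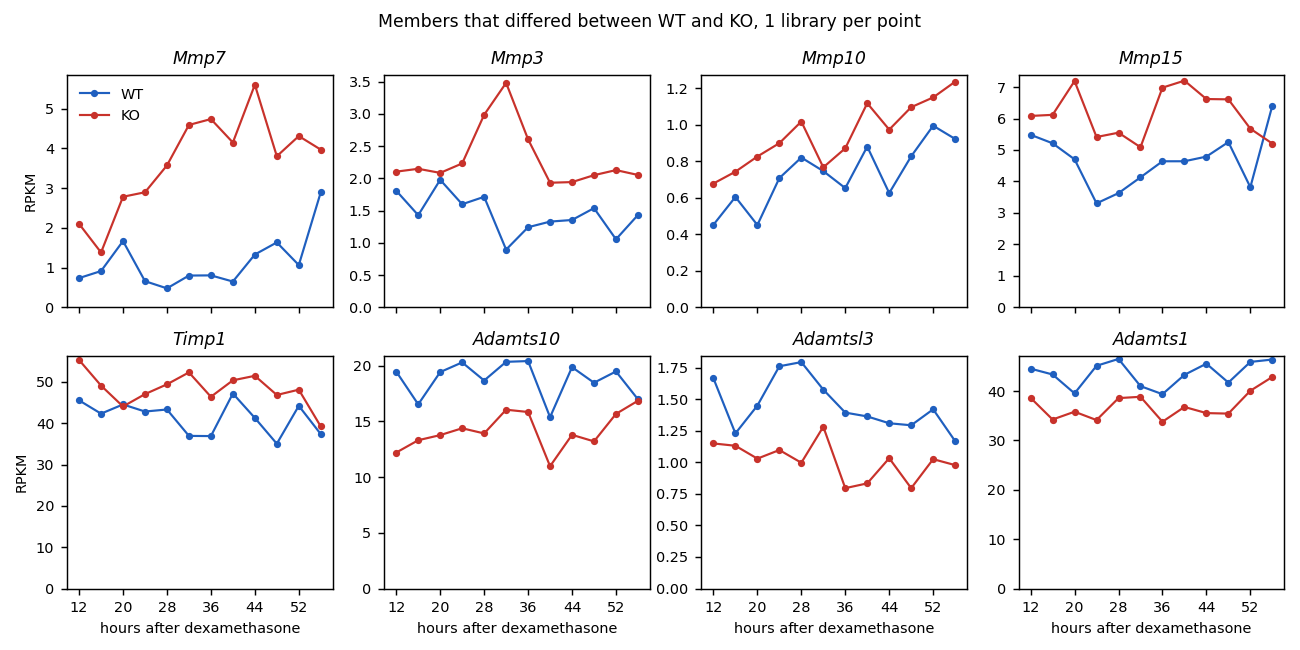
RPKM (vertical axes, from 0) by hours after dexamethasone for 8 members that differed between genotypes, 1 library per point, WT in blue and KO in red. KO lies above WT at all 12 hours for Mmp7, Mmp3 and Mmp10 and below it at all 12 hours for Adamts10, Adamtsl3 and Adamts1; Mmp15 and Timp1 each have 1 hour of the opposite order.

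The 25 tested members that did not pass had differences from -0.41 (Timp4) to +0.46 (Mmp8), with adjusted p from 0.0674 to 0.939. They include Mmp19 (medians of 15.5 and 15.6 RPKM), Mmp23 (14.9 and 17.5), Mmp11, Mmp17, Mmp27, Mmp28, and the proteoglycanases Adamts8, Adamts15 and Adamts20. With the hour as a block, Timp4 and Mmp28 passed as lower (adjusted p = 0.0185 and 0.0279) and Mmp23, Adamts4 and Mmp8 as higher in KO (adjusted p = 0.0111, 0.0361 and 0.0474). The same 5 genes passed with trend and 24 h terms in the model.

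Change with time after dexamethasone was tested as a linear slope per 24 h, averaged over the genotypes, in a model with 24 h cosine and sine terms. Of the 43 members, 10 changed (23.3%), against 8.80% of all genes. Of these 6 rose, where 4.63% of all genes did, and 4 fell, where 4.17% did. Time in culture, exposure to dexamethasone and the recovery from it cannot be told apart, since all cells had dexamethasone.

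Most of the rising genes were in the chromosome 9 cluster, where 5 of the 7 tested rose and 0 fell. Mmp13, the collagenase of cartilage and bone, was at 2.27 RPKM at 12 h and 7.50 at 56 h in WT, and at 2.70 and 10.1 in KO. The rise was more even in WT than in KO, and the slope was +0.94 ± 0.117 log2 units per 24 h (SE, adjusted p = 3.85e-05), or 1.92-fold. The WT library of 36 h was at 4.22 RPKM, below its neighbours in time at 5.12 and 5.59. Of the 4 osteoblast markers, Ibsp and Sp7 were highest in that library, and Bglap and Runx2 in other libraries. Of the 5 cartilage markers, Col2a1, Col11a2 and Acan were highest there too, and Col9a1 and Matn1 elsewhere. Mmp8, the collagenase first known from neutrophils, rose from 0.568 to 2.33 RPKM in WT and was at 1.96 and 2.30 at the first and last hour in KO, with a minimum of 0.940 at 32 h. Its slope was +0.67 ± 0.154 (adjusted p = 0.00873), and the part of neutrophils in it was not tested. Of the 4 neutrophil markers, Mpo and Elane stayed at or under 0.106 and 0.0400 RPKM, while S100a8 (1.45 to 4.57 RPKM) and S100a9 (2.10 to 13.5 RPKM) were present in every library. Their summed level was 4.52 to 17.7 RPKM in WT and 5.05 to 13.4 in KO. Mmp27, next to Mmp8, rose from 0.245 to 0.635 RPKM in WT and was at 0.345 and 0.412 at the same hours in KO (average slope +0.46 ± 0.112, adjusted p = 0.0136). Its slope was lost when the 12 h libraries were left out (adjusted p = 0.0621, the highest of its alternatives, the lowest being 0.00202).

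Mmp10 and Mmp7 rose on average over the genotypes and passed in neither genotype alone. Mmp10 was at 0.452 and 0.923 RPKM at the first and last hour in WT and at 0.679 and 1.24 in KO, with an average slope of +0.35 ± 0.0693 (adjusted p = 0.00294). Mmp7 was at 0.735 and 2.90 RPKM at these hours in WT, where only the last hour was far above the earlier ones, and at 2.10 and 3.97 in KO, with its maximum of 5.60 at 44 h. The Mmp7 slope, +0.66 ± 0.195 (adjusted p = 0.0378), was lost without the 12 h libraries (adjusted p = 0.0884, the highest of its alternatives, the lowest being 0.0150). Mmp12 and Mmp3, the other cluster genes tested, did not pass (slopes of -0.32 and -0.21). Both hold the AP-1 letters, while Mmp8 and Mmp27, which rose, lack them.

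Outside the cluster, Timp4, the Timp gene with the most restricted expression, known from heart and fat, rose from 2.498 to 4.28 RPKM in WT and from 1.27 to 5.81 in KO. The KO values were under those of WT at 10 of 12 hours and passed them at 52 h, and the slope was +0.86 ± 0.101 (adjusted p = 2.01e-05). The genes that fell were Adamts14, Adamtsl3, Mmp23 and Adamts3. Adamts14, a procollagen N-proteinase like Adamts2, was at 1.31 and 0.919 RPKM at the first and last hour in WT and fell from 1.64 to 0.930 in KO, with an average slope of -0.35 ± 0.0617 (adjusted p = 0.00124). Adamts3, the third of that group, which also activates the lymphatic growth factor VEGF-C, had a slope of -0.18 ± 0.0549 (adjusted p = 0.0419, and from 0.0277 to 0.181 over the alternatives). Adamts2 itself had +0.12 and did not pass (adjusted p = 0.0545). Mmp23, a protease anchored at its amino end and released by cleavage, fell by -0.19 ± 0.0396 (adjusted p = 0.00426), and Adamtsl3 by -0.23 ± 0.0626 (adjusted p = 0.0246). The Adamtsl3 slope was lost without the 12 h libraries (adjusted p = 0.0916). It was also lost without the 24 h terms in the model (adjusted p = 0.0952).

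**Figure D5:**
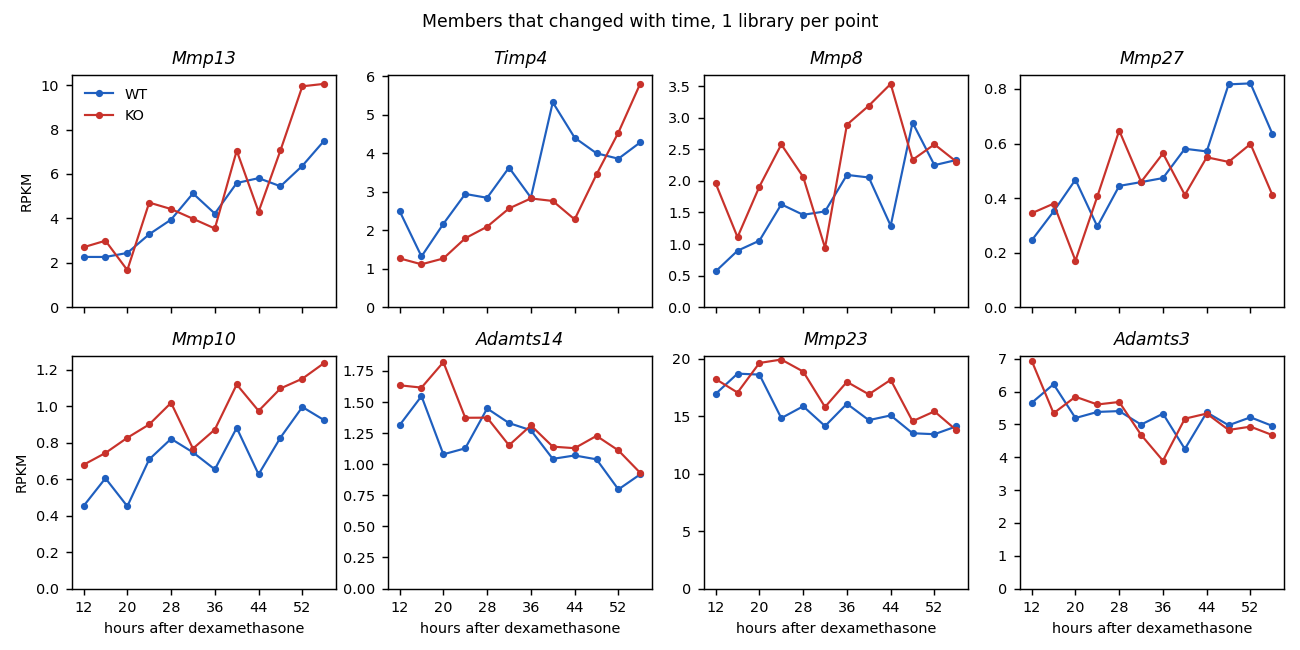
RPKM (vertical axes, from 0) by hours after dexamethasone for 8 members with a slope over time, 1 library per point, WT in blue and KO in red. Mmp13, Timp4, Mmp8, Mmp27 and Mmp10 rise and Adamts14, Mmp23 and Adamts3 fall; Mmp13 rises from 2.27 to 7.50 RPKM in WT and from 2.70 to 10.1 in KO.

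Within WT alone, Mmp13, Mmp8, Mmp27 and Timp4 rose and Adamtsl2 fell (-0.30 per 24 h), and within KO alone Mmp13 and Timp4 rose and Adamts14 fell. None of these was shown to differ between genotypes: the difference in slope passed for 0 of 43 members, against 0% of all genes. At an unadjusted p under 0.05 it was 3 of 43, Mmp17, Adamtsl2 and Adamts17, against 6.50% of all genes, and the smallest adjusted p was 0.649. Adamtsl2 fell in WT from 36.5 to 24.4 RPKM and was at 22.9 and 28.4 at the same hours in KO.

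No 24 h rhythm passed in any member. The counts were 0 of 43 in WT, 0 of 43 in KO and 0 of 43 for the difference, with limma on cosine and sine terms, against 0.0397%, 0.0794% and 0% of all genes. At an unadjusted p under 0.05 there were 4 members in WT, 4 in KO and 2 for the difference, where the shares of all genes were 8.23%, 8.39% and 4.93%. The smallest adjusted p was 0.499 in WT, for Adamts4, whose fitted amplitude of 0.40 log2 units was the largest of any member in WT, and 0.525 in KO, for Adamtsl2. Each hour had 1 library per genotype, so a rhythm could be tested only as a smooth curve through 12 points. So few of all genes passed that 0 of 43 does not show an absence of rhythm. The study called cycling genes with another method, MetaCycle, at P < 0.05 and a minimum relative amplitude. Its counts cannot be set against these, which rest on adjusted p.

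Other genes of these pathways were read from the same comparison, in which 11.5% of all genes were higher and 14.7% lower in KO. Among 12 activators and inhibitors of extracellular proteolysis, 3 were higher and 3 lower in KO. Those with the largest differences were the proprotein convertases Pcsk5 (-0.47) and Pcsk6 (+0.22), which cleave protease precursors, Reck (-0.13), a membrane-anchored Mmp inhibitor, and Bsg (+0.12), an inducer of Mmp expression. Of the 9 ADAMTS substrates, Vcan, the versican cut by Adamts1 and Adamts9, was higher (+0.37), and the brain proteoglycans Ncan and Bcan were lower (-1.63 and -0.64). Of 18 rows of 17 ADAM and other metzincin proteases, 2 were higher and 4 lower, Adam22 being counted in 2 rows, which for the higher genes is near the share of all genes. Mep1a differed by -1.07, Adamdec1, a macrophage-lineage protease, by +0.40, Pappa, which cuts IGF-binding proteins, by -0.39, and Adam8, a leukocyte ADAM, by +0.38.

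Regulators known to act on the cluster, and target genes of glucocorticoids, were read beside the same shares, and beside 4.63% of all genes rising and 4.17% falling with time. The regulators were 11 genes, of AP-1 and ETS factors and Runx2, which belongs to neither group and passed neither test. Of the 11, 3 were higher in KO, among them Fosl1 (+0.57) and Junb (+0.16), and 2 were lower, Ets1 (-0.18) and Fos (-0.16). With time 4 of the 11 rose, among them Junb by 0.15 per 24 h. Fosl1 was at a median of 0.464 RPKM in WT and 0.712 in KO. Of 9 glucocorticoid targets, Zbtb16, Sgk1 and Mt1 were lower in KO (-0.31, -0.28 and -0.21), 4 rose with time and Per1 fell. Whether any of these genes bears on the Mmp genes was not tested.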

How the data were processed

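PolyA RNA from 24 libraries was read as 101-bp pairs. The authors trimmed reads with Trimmomatic (0.36), mapped them with STAR (2.5.4b) to GRCm38/mm10, removed alignments with a mapping quality under 10 with SAMtools, counted exon reads of UCSC known canonical genes with HOMER, and deposited them as RPKM with the exonic length in bases; versions are from the submitters' processing notes. RPKM times length and total gave multiples of 0.5 fragment in 100% of values (tolerance 0.01), used only to describe depth. Low fragment numbers limit precision.

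Genes with a mean over 0.5 RPM in a genotype were tested with limma 3.58.1 (R 4.3.3; eBayes with trend) on log2(RPKM + 0.1), checked on simulated data. Relations used two-sided permutation tests in Python 3.11.15 with scipy 1.17.1. Overlaps came from GENCODE, promoters from RefSeq. MetaCycle, the periodicity method of the study, was not run, and cosine terms took its place.

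Named members are those past a test (the 10 smallest p where more pass), the highest 4 Mmp, 4 Adamts and 2 Adamtsl, every Timp and Mmp9, and up to 4 called genes per related list; other members were named after their values were seen, to account for each one. The members and lists were chosen with earlier results of these data known. Alternatives covered the pseudocount (1 or 0.01), filters, quantile and median-ratio scaling, the variance trend, the hour as a block, trend terms, the Student test of the study on RPKM, early or late hours, and periods of 22 and 26 h; leaving out the WT library of 36 h was chosen after seeing the data.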

Additional observations from a re-analysis of the deposited data

How the results depend on the processing

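Of 551 repeated genotype differences of single members, 517 kept their side of the threshold, 23 lost the call, 11 gained it and 0 reversed. For slopes over time these were 449, 12, 4 and 0 of 465. A reversal was counted only where the main or the alternative fit was called. Differences without a call could change sign, as for Adamts17 (-0.08, and up to +0.08 over the alternatives). The member counts of 8 higher and 10 lower in KO moved most with fewer hours: 4 higher and 5 lower with hours 12 to 32 only, and 3 higher with hours 36 to 56 only, where fewer samples entered. A filter at 1 RPKM left 5 higher, since fewer genes were tested. In the related lists, 16 genes higher and 20 lower became 7 and 10 with hours 12 to 32 and 9 higher with hours 36 to 56. Without the 12 h libraries 2 slopes fell in place of 4. Libraries of the same hour share the time after dexamethasone, and no shared culture or batch is stated for them; their deviations correlated between -0.175 and 0.389, over 0.1 in 7 of 12 pairs. With the hour as a replicate block, 10 members were higher and 12 lower, Adamts12 lost its call (adjusted p = 0.0552), and Adamts4, Mmp28, Mmp23, Timp4 and Mmp8 gained one, as they did with trend and 24 h terms in the model. Without the WT library of 36 h, Adamts5 lost its call and the slopes of Mmp28 and Mmp16 gained one (adjusted p = 0.0416 and 0.0420). Over all genes, 1743 were higher and 2227 lower in KO, and 2030 and 1980 with median-ratio scaling. Each hour has 1 library per genotype, so no single hour can be tested, and members under 1 RPKM rest on few fragments.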
